A study of Mus musculus with 7 samples.

Results

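The 119 genes described here were lower in every cerebellum labelled CicKO than in every cerebellum labelled Wildtype. They were chosen from these measurements by a rule on CPM (the reads of a gene per 1000000 reads assigned to genes in that library). A gene was kept if it averaged 1 CPM or more over the 7 libraries and if its highest CicKO value was at most 0.87 times its lowest Wildtype value. Of the 24421 genes listed, 13991 averaged 1 CPM or more and 128 met the rule (0.915%). The rule leaves out 9 genes by name (Cic, Gdf10, Agt, Sdc1, Hapln2, Bmp5, Sost, Serpina3n and Cldn11), and the other 119 are its members. Because the rule used the same contrast, the fold changes below describe the members and no p-value is given for them.

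RNA from dissected cerebella of C57BL/6 mice was sequenced, with 4 CicKO and 3 Wildtype libraries. The genotype given for CicKO was En1-Cre with both Cic alleles floxed (Cicflox/flox). The animals titled Wildtype carried 1 floxed and 1 unmodified allele (Cicflox/+) with no Cre named. The labels thus leave En1-Cre, its place in the genome included, and loss of Cic as differences that cannot be told apart. Age, sex and litter were not stated, and nothing said outright that each library came from a separate animal; p-values measure only the spread between these libraries. En1 drives Cre in the embryonic midbrain and anterior hindbrain, so recombination is limited to cells of that lineage, while other cells of the dissected tissue keep their floxed alleles.

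Capicua, the protein encoded by Cic, is a transcriptional repressor with an HMG box that binds short DNA motifs such as TGAATGAA and TGAATGGA. Signalling from receptor tyrosine kinases through ERK relieves this repression, and the best known direct targets, such as the ETS factors Etv1, Etv4 and Etv5, are genes that rise when Capicua is lost. In the cerebellum Capicua forms a complex with ataxin-1, the protein mutated in a human spinocerebellar ataxia. The genes described here lie in the other direction, lower in CicKO.

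Cic itself had 145, 145, 148 and 146 CPM in CicKO, against 218, 253 and 225 CPM in Wildtype. On the log2 scale CicKO was at -0.66 relative to Wildtype (standard error, SE, 0.0622; edgeR quasi-likelihood test, adjusted p = 0.00256). The CicKO libraries lay close together and below all Wildtype libraries, but 63.0% of the Wildtype mean remained, as counted over the whole gene and not over deleted exons alone. Of 18 genes listed as known Capicua targets, 9 were called higher in CicKO at an adjusted p below 0.05 and 0 lower in edgeR (13 higher and 1 lower at an unadjusted p below 0.05, and the same counts in DESeq2), and 0 of the 18 were members. The libraries held between 102653765 and 121285349 gene counts, so that 3 counts equal 0.0247 to 0.0292 CPM. The summed level of 14 cerebellar marker genes was 11407 to 14486 CPM in CicKO and 11588 to 12918 CPM in Wildtype. Reads assigned to no gene made up 18.6 ± 0.340% in CicKO and 17.0 ± 1.36% in Wildtype (SD, n = 4 and 3; exact two-sided permutation p = 0.0857). Markers of the choroid plexus, the epithelium that makes cerebrospinal fluid, were far higher in the libraries of replicate 3 than in the others, with 12 markers summing to 48.8 to 8859 CPM in CicKO and 80.7 to 6296 CPM in Wildtype.

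The mirror rule, with every Wildtype value below every CicKO value by the same ratio, took 274 genes (1.96%). Without the ratio, every CicKO library lay below every Wildtype library in 1227 of the 13991 genes (8.77%) and above in 1055 (7.54%). In the edgeR fit, 140 of 16905 genes tested were called lower in CicKO (0.828%) and 212 higher (1.25%), and 73 of the 119 members were among those called lower. All 119 members passed the count filter of that fit. Since rule and fit use the same libraries, this overlap is a description. Of the 16777 tested genes that were neither members nor left out by name, 58 were called lower and 212 higher in edgeR. At an unadjusted p below 0.05 in edgeR, 1251 of them were lower and 1362 higher, and DESeq2 called 372 lower and 673 higher. Log2 fold changes were negative in 8531 of these 16777 genes. Some lists had 1 sign throughout, with 18 of 18 ribosomal protein genes and 0 of 15 Purkinje cell markers negative. The counts given for gene lists stand beside these.

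Most members differed by a moderate amount. The median CicKO mean was 65.3% of the Wildtype mean, and the median log2 fold change was -0.61 (range -2.31 to -0.29), beside -0.0044 over all genes tested. The CicKO mean was at most 25% of the Wildtype mean for 2 genes, Ostn and Wif1, at most 50% for 20 and at most 70% for 71. Another 45 members lay between 70 and 80%, and 3 above 80%. The plot of members by library shows the 4 CicKO libraries at medians of 63.3, 67.2, 69.4 and 62.4% of the Wildtype mean, against 99.3, 98.7 and 100.1% in the 3 Wildtype libraries.

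**Figure D1:**
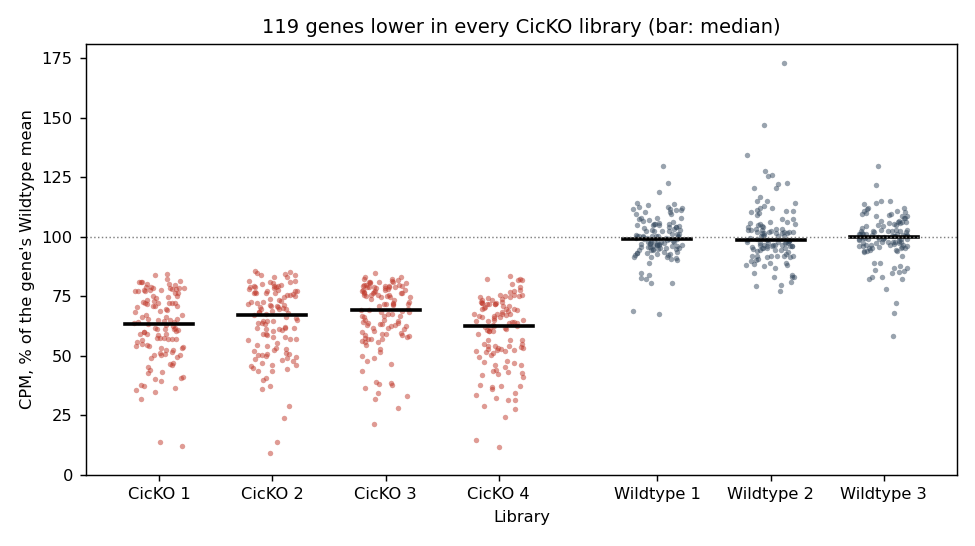
CPM of each of the 119 members in each library, as a percentage of that gene's Wildtype mean (points), with the median over members (bars). CicKO medians lie between 62.4 and 69.4%, and single Wildtype points spread widely around 100%, most of all in Wildtype library 2.

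Members were mostly genes of low level. Their median mean level was 7.52 CPM, beside 30.5 CPM over the 13991 genes. Of genes with a mean of 1 to 5 CPM, 42 of 2269 were members (1.85%), and of genes with 20 to 100 CPM, 19 of 5880 (0.323%). Only Ndrg2 exceeded a mean of 1000 CPM, 1 of the 62 genes at that level (1.61%). Corrected for exonic length, the highest mean levels belonged to Ndrg2 with 320.4 CPM per kilobase, Chgb with 262 and Fam107a with 214. The median coefficient of variation was 9.61% among CicKO and 8.10% among Wildtype libraries for members, beside 6.31% among CicKO and 6.90% among Wildtype libraries over the 13991 genes.

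**Figure D2:**
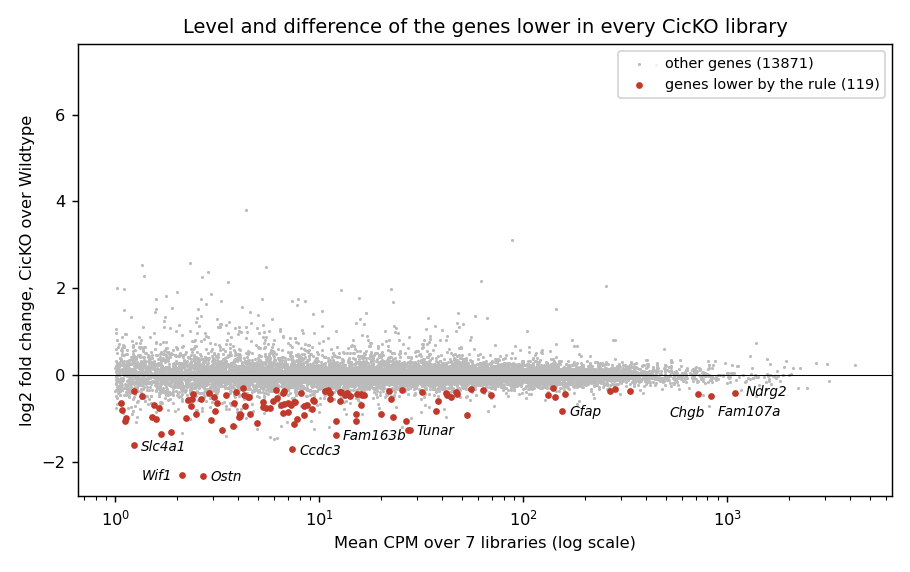
Log2 fold change (CicKO over Wildtype) against mean CPM over 7 libraries on a log axis, for the 119 members (red) and the 13871 other tested genes that averaged 1 CPM or more (grey). Members form a band below zero at all levels, and Ostn and Wif1 lie lowest.

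The limit of 0.87 cut through a continuous range. Just inside it were Olig1 with a ratio of highest CicKO to lowest Wildtype value of 0.8693, Pik3r1 with 0.8690, Onecut2 with 0.8688, Agpat9 with 0.8684 and Fam217a with 0.8680. Just outside were Mt2 with 0.8707, Tmem178 with 0.8707, Kcnk1 with 0.8708, Zcchc12 with 0.8718 and Efnb2 with 0.8720. CicKO library 3 supplied the highest CicKO value for 52 members (43.7%, beside 41.8% over the 13991 genes), and Wildtype library 2 the lowest Wildtype value for 50 (42.0%, beside 43.8%). CicKO library 4 held the lowest CicKO value for 56 of the 119 members, beside 3938 of the 13991 genes.

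Peptides that cells secrete, their processing enzymes and their receptors made up 9 members with a median log2 fold change of -0.78. In neurons and endocrine cells, such peptides are cut from precursors by convertases inside dense-core vesicles, which are built with granin proteins, and act on receptors of neighbouring cells. Ostn encodes osteocrin, a small secreted peptide related to natriuretic peptides that binds their clearance receptor; in primate neurons its gene is switched on by activity. Ostn had 0.682, 0.457, 1.64 and 1.20 CPM in the 4 CicKO libraries, against 4.74, 5.02 and 5.03 CPM in the 3 Wildtype libraries. The highest CicKO value, in library 3, was 0.346 times the lowest Wildtype value, so the groups were far apart. The log2 fold change of -2.31 (SE 0.377) was the most negative of all members.

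Nppc, which encodes C-type natriuretic peptide, had 2.18, 2.23, 2.27 and 2.55 CPM in CicKO libraries 1 to 4, against 3.92, 4.58 and 3.75 CPM in Wildtype libraries 1 to 3. The CicKO libraries agreed closely and all lay below Wildtype, with a log2 fold change of -0.82 (SE 0.128). Of the 11 other tested genes of the natriuretic peptide and cGMP list, 0 were called in edgeR (1 lower and 1 higher at an unadjusted p below 0.05, and the same counts in DESeq2), and their median log2 fold change was -0.01. Npr3, the clearance receptor bound by osteocrin, had 1.84, 1.48, 15.1 and 2.48 CPM in the CicKO libraries, against 5.10, 2.19 and 12.3 CPM in the Wildtype libraries. Its groups overlapped widely and both libraries of replicate 3, the ones with high choroid plexus markers, were the highest of their group (log2 fold change -0.33, SE 1.03, adjusted p = 0.911, edgeR).

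The neuropeptides Sst (somatostatin) and Npy (neuropeptide Y), which mark classes of inhibitory neurons, were both members at low levels. Sst had 1.12, 1.08, 1.70 and 1.12 CPM in CicKO, against 1.995, 2.36 and 2.03 CPM in Wildtype. CicKO library 3 stood above the other CicKO libraries but still below Wildtype, and the log2 fold change was -0.76 (SE 0.190). Npy had 6.76, 8.28, 4.55 and 8.43 CPM in the 4 CicKO libraries, against 14.4, 11.7 and 10.3 CPM in the 3 Wildtype libraries, a log2 fold change of -0.78 (SE 0.225). CicKO library 3 was the lowest library here, and the gap between groups was narrow beside the spread within each.

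Pcsk1 encodes a prohormone convertase that cuts peptide precursors, and Chgb encodes chromogranin B, a granin of dense-core vesicles. Pcsk1 had 11.3, 9.94, 10.8 and 9.43 CPM in CicKO libraries 1 to 4, against 14.6, 26.4 and 23.8 CPM in Wildtype libraries 1 to 3. The CicKO libraries were even, while Wildtype library 1 lay well below the other Wildtype libraries (log2 fold change -1.06, SE 0.189). Chgb had 598, 677, 600.1 and 624 CPM in the CicKO libraries, against 799, 905 and 824 CPM in the Wildtype libraries, with all CicKO values below all Wildtype values and a log2 fold change of -0.43 (SE 0.0783). It was the most abundant peptide-related member by far, both in CPM and per length.

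Ramp3, an accessory protein of the calcitonin receptor family, had 5.79, 5.68, 6.76 and 6.14 CPM in CicKO, against 9.52, 13.2 and 11.8 CPM in Wildtype (log2 fold change -0.92, SE 0.126). The groups were separated by more than the range within CicKO. Sorcs1, a sorting receptor of the Vps10 family, averaged 13.9 ± 1.30 CPM in CicKO and 19.1 ± 2.12 CPM in Wildtype (SD, n = 4 and 3).

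Scg2 and Chga, granin genes chosen after their values were seen, differed from each other in direction. Scg2, which encodes secretogranin II, had 354, 352, 299 and 345 CPM in the 4 CicKO libraries, against 182, 189.7 and 207 CPM in the 3 Wildtype libraries. It was higher in every CicKO library, at 0.81 on the log2 scale (SE 0.0834, adjusted p = 0.00312, edgeR), the direction opposite to Chgb. Chga, for chromogranin A, had 103, 114, 111 and 107 CPM in CicKO libraries 1 to 4, against 137, 130.1 and 127 CPM in Wildtype libraries 1 to 3, or -0.27 on the log2 scale (SE 0.0485, adjusted p = 0.0333, edgeR). That call was lost with the replicate block (adjusted p = 0.0518) and without CicKO library 1, 2 or 4 or Wildtype library 1 or 3 (adjusted p 0.0526 to 0.135). Of the 25 other tested neuropeptides and receptors, 1 was called lower and 0 higher in edgeR (3 lower and 1 higher at an unadjusted p below 0.05, and 1 each way in DESeq2). The 1 was Galr1, a galanin receptor, which averaged 0.174 ± 0.0823 CPM in CicKO and 0.614 ± 0.107 CPM in Wildtype (SD, n = 4 and 3; log2 fold change -1.82, adjusted p = 0.0457, edgeR). It lost its call without any 1 library other than CicKO library 3 (adjusted p 0.0772 to 0.145).

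The promoters of Chgb, Pcsk1 and Sst, shown because these 3 peptide-related members share a motif, each held TGACGTCA, the palindromic cAMP response element bound by CREB. The 250 bases before the RefSeq start (GRCm38.p6) are written 5′ to 3′ on the strand of the gene, with the motif in capitals. They lie at chr2:132781392-132781641 (plus strand) for Chgb, chr13:75089607-75089856 (plus strand) for Pcsk1 and chr16:23890845-23891094 (minus strand) for Sst.
Chgb: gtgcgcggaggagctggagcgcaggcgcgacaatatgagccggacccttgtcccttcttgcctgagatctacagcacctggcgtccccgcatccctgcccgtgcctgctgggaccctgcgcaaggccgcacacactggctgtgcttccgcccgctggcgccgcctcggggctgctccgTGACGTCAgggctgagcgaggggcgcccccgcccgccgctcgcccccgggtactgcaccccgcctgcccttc
Pcsk1: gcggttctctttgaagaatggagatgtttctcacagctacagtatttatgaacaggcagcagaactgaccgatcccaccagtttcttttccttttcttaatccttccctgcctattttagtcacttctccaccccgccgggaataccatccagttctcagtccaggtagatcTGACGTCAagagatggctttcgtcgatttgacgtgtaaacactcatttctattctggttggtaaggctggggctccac
Sst: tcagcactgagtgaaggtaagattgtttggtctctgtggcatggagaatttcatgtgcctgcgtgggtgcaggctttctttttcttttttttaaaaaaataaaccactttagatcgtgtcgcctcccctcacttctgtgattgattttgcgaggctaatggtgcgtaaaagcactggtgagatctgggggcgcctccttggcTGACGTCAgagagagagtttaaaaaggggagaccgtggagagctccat
The motif begins 72 bases before the start in Chgb, 78 in Pcsk1 and 48 in Sst. RefSeq windows of 250 bases before to 50 after the start were found for 89 members, and TGACGTCA was in 4 of them (4.49%), the other one being C030029H02Rik. It was found for 3.50% of the 11118 matched genes that averaged 1 CPM or more. Some genes have more than 1 window, and by window it was in 4 of 123 member windows (3.25%), beside 1.79% of all 32851. Its reverse complement is the same word, so both strands are covered. A match of letters is not a measured binding site.

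Secreted signals and extracellular matrix proteins were 15 members with a median log2 fold change of -0.64. Wif1 encodes a secreted inhibitor that binds Wnt ligands and is expressed by Bergmann glia and astrocytes. Wif1 had 0.477, 0.535, 1.70 and 0.461 CPM in the CicKO libraries, against 3.62, 3.01 and 5.04 CPM in the Wildtype libraries, a log2 fold change of -2.29 (SE 0.483). CicKO library 3 stood well above the other CicKO libraries, and Wildtype library 3 was likewise the highest of its group. Without CicKO library 3 the log2 fold change was -2.97. Both libraries of replicate 3 also had the high choroid plexus markers, and the part of those cells in the Wif1 level was not tested.

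The start region of Wif1 held 1 of the 2 Capicua motifs searched, and that of Neurod6, a transcription factor gene described below, the other; they are shown because these words define the factor that was deleted. The 250 bases before the start, on the strand of the gene, lie at chr10:121033754-121034003 (plus strand) for Wif1 and chr6:55681264-55681513 (minus strand) for Neurod6 in RefSeq GRCm38.p6, with the motif in capitals.
Wif1: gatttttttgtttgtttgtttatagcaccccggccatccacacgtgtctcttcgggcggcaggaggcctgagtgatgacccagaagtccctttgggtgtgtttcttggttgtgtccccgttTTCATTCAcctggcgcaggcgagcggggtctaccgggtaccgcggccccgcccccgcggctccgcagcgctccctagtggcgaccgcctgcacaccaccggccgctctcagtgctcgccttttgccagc
Neurod6: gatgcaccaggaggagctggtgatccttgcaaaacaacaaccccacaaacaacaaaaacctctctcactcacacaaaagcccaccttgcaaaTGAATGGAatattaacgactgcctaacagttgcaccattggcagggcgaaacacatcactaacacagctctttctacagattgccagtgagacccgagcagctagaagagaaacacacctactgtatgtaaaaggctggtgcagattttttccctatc
In Wif1 the word is TTCATTCA, the reverse complement of TGAATGAA, beginning 129 bases before the start, and in Neurod6 it is TGAATGGA, beginning 158 bases before. Searched on both strands, TGAATGAA was found for 1 of 89 members (1.12%), beside 1.02% of matched genes. By window it was in 1 of 123 member windows (0.813%), beside 1.30% of all windows. TGAATGGA was also found for 1 of 89 members (1.12%), beside 0.890% of matched genes, and in 1 of 123 member windows (0.813%), beside 1.21% of all windows. The shares among members were close to those elsewhere. The ETS word CCGGAAGT was found for 3 members (Akr1b8, Alkbh2 and Fgfrl1, 3.37%), beside 8.48% of matched genes. It was in 2.44% of the 123 member windows, beside 3.89% of all windows.

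Other Wnt pathway genes lay in both directions. Of 22 others tested, 9 had negative log2 fold changes, and 2 were called higher and 0 lower in edgeR (5 higher and 2 lower at an unadjusted p below 0.05, and 4 higher and 1 lower in DESeq2), with a median log2 fold change of 0.07. Notum, a secreted lipase that inactivates Wnt proteins, had 7.23, 6.44, 5.80 and 8.22 CPM in CicKO, against 3.22, 2.96 and 3.15 CPM in Wildtype. Every CicKO library was above every Wildtype library, at 1.16 on the log2 scale (SE 0.142, adjusted p = 0.00719, edgeR), and the call held without any 1 library (adjusted p 0.00167 to 0.048). The ligand gene Wnt3 averaged 31.9 ± 3.69 CPM in CicKO and 20.7 ± 1.38 CPM in Wildtype (SD, n = 4 and 3; log2 fold change 0.63, adjusted p = 0.0243, edgeR). Its call was lost without any 1 library other than CicKO library 3 (adjusted p 0.0543 to 0.114).

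Ccdc3, a secreted coiled-coil protein, had 3.87, 3.51, 5.81 and 1.80 CPM in the 4 CicKO libraries, against 11.5, 13.6 and 11.5 CPM in the 3 Wildtype libraries. The CicKO values were spread widely, yet the highest was 0.506 times the lowest Wildtype value (log2 fold change -1.71, SE 0.326). Its exons share 1845 bases with Gm26776 on the opposite strand, and the strand setting of the counts was not stated. Myoc, for the secreted glycoprotein myocilin, had 1.75, 2.26, 2.47 and 1.88 CPM in CicKO libraries 1 to 4, against 3.45, 8.67 and 2.92 CPM in Wildtype libraries 1 to 3. Wildtype library 2 stood far above the other Wildtype libraries, and without it the log2 fold change of -1.27 (SE 0.373) became -0.60.

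The matrix genes differed in size of effect. Fbln5, a glycoprotein of elastic fibres, averaged 8.30 ± 2.61 CPM in CicKO and 17.2 ± 2.54 CPM in Wildtype (SD, n = 4 and 3), a log2 fold change of -1.05. Col9a2, a chain of type IX collagen, had 10.5, 10.02, 13.2 and 10.8 CPM in the CicKO libraries, against 22.7, 17.5 and 21.6 CPM in the Wildtype libraries (log2 fold change -0.89, SE 0.109). Its groups were separated by more than the range within CicKO. Pxdn, a peroxidase that crosslinks basement membrane collagen, averaged 6.89 ± 1.27 CPM in CicKO and 11.2 ± 0.420 CPM in Wildtype (SD, n = 4 and 3). Hs3st1, an enzyme that sulfates heparan chains, averaged 31.2 ± 4.65 CPM in CicKO and 47.4 ± 4.68 CPM in Wildtype (SD, n = 4 and 3).

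Regulators of growth factors and proteases followed the same description. Tdgf1, the Nodal co-receptor Cripto, had 4.30, 4.28, 4.98 and 4.23 CPM in CicKO, against 7.84, 6.66 and 7.92 CPM in Wildtype (log2 fold change -0.75, SE 0.09998). CicKO libraries 1, 2 and 4 were nearly equal and CicKO library 3 was slightly higher. Plat, tissue plasminogen activator, averaged 37.6 ± 4.21 CPM in CicKO and 52.8 ± 5.55 CPM in Wildtype, and Serpind1, a thrombin inhibitor, 5.65 ± 0.290 CPM in CicKO and 8.83 ± 2.28 CPM in Wildtype (SD, n = 4 and 3). Sepp1, selenoprotein P (now Selenop), had 238, 257, 230.1 and 221 CPM in the 4 CicKO libraries, against 308, 308 and 305 CPM in the 3 Wildtype libraries, a log2 fold change of -0.37 (SE 0.0613); its Wildtype libraries were almost identical. Fgfrl1, a decoy-like FGF receptor, Ism1, Adamts9 and B3gat1, which makes the HNK-1 carbohydrate, completed the group with log2 fold changes of -0.44, -0.51, -0.42 and -0.34.

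Of 26 other matrix and adhesion genes tested, 1 was called lower and 0 higher in edgeR (3 lower and 5 higher at an unadjusted p below 0.05, and 3 each way in DESeq2), with a median log2 fold change of -0.11. Sparc, an abundant matrix-binding protein of glia and vessels, had 619.8, 618, 779 and 531 CPM in CicKO libraries 1 to 4, against 1137, 876 and 1122 CPM in Wildtype libraries 1 to 3. It missed the rule only because its highest CicKO value was 0.89 times its lowest Wildtype value (log2 fold change -0.71, adjusted p = 0.0330, edgeR). The call was lost without CicKO library 1, 2 or 4 or Wildtype library 1 or 3 (adjusted p 0.0855 to 0.150).

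**Figure D3:**
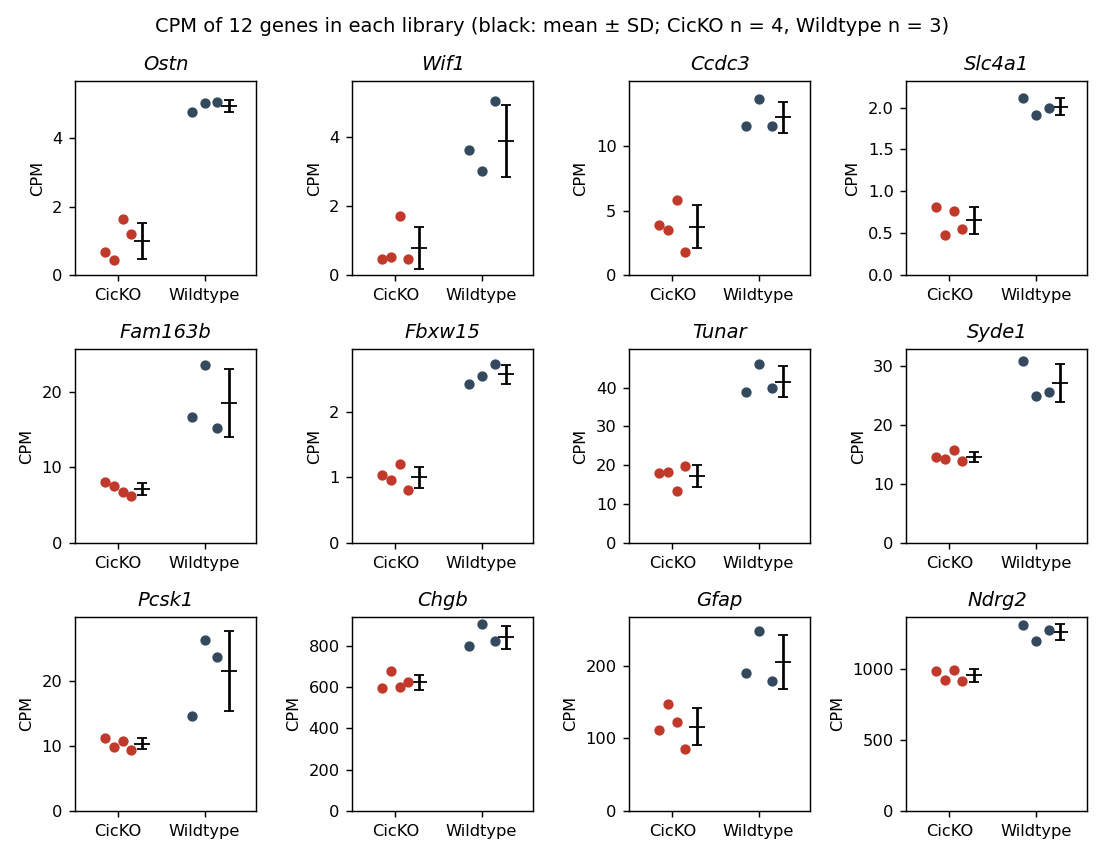
CPM of 12 members in each CicKO library (red, n = 4) and each Wildtype library (dark, n = 3), with the mean and SD of each group in black; each panel has its own axis from 0. No CicKO point reaches a Wildtype point, and Wif1 and Ccdc3 have the CicKO library 3 value above the rest of their group.

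Genes of astrocytes and of the oligodendrocyte lineage were 10 members with a median log2 fold change of -0.44. In bulk tissue, fewer cells of a type and less RNA per cell cannot be told apart. Gfap, the intermediate filament protein of astrocytes, had 111, 147, 122 and 84.7 CPM in the CicKO libraries, against 189.9, 248 and 179 CPM in the Wildtype libraries. CicKO library 4 was the lowest and Wildtype library 2 the highest, and the log2 fold change was -0.82 (SE 0.197). Ndrg2, an abundant astrocyte protein, had 991, 923, 996 and 917 CPM in CicKO, against 1313, 1198 and 1280.5 CPM in Wildtype, a log2 fold change of -0.40 (SE 0.0603). Fam107a had 808, 668, 690.5 and 664 CPM in the 4 CicKO libraries, against 1052, 949 and 971 CPM in the 3 Wildtype libraries, with library 1 the highest of each group (log2 fold change -0.48, SE 0.0852).

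Mt1, a metal-binding metallothionein, had 146, 132, 146 and 135 CPM in CicKO libraries 1 to 4, against 203, 172 and 190.3 CPM in Wildtype libraries 1 to 3 (log2 fold change -0.43, SE 0.0591). Its neighbour in function Mt2, just outside the rule, averaged 92.8 ± 6.62 CPM in CicKO and 126 ± 12.6 CPM in Wildtype (SD, n = 4 and 3; log2 fold change -0.44, adjusted p = 0.0256, edgeR). Both paralogs were thus lower by a like amount, but the Mt2 call was lost without CicKO library 1, 2 or 4 or Wildtype library 1 or 3 (adjusted p 0.0578 to 0.126). Of the 17 other tested genes of the glutathione, metallothionein and stress list, Mt2 included, 13 were below 0 on the log2 scale and the median was -0.26. In edgeR 1 was called lower and 0 higher (10 lower and 0 higher at an unadjusted p below 0.05, and 4 lower and 0 higher in DESeq2). Pla2g7, the hydrolase of platelet-activating factor, had 301, 304, 297 and 286 CPM in the CicKO libraries, against 373, 369 and 405 CPM in the Wildtype libraries (log2 fold change -0.36, SE 0.0520).

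The list of Bergmann glia and astrocyte markers held 3 members, Gfap, Ndrg2 and Wif1. Of its 17 other genes, 12 were below 0 on the log2 scale, with a median of -0.14, 1 was called lower and 0 higher in edgeR (6 lower and 0 higher at an unadjusted p below 0.05, and 3 lower and 0 higher in DESeq2). The 1 called in edgeR was Aqp4, the water channel of astrocyte endfeet, with 311, 373, 353 and 319.9 CPM in CicKO, against 415, 469.6 and 474 CPM in Wildtype. It lay below Wildtype in every CicKO library (log2 fold change -0.42, SE 0.0801, adjusted p = 0.0408, edgeR), and lost its call without CicKO library 1 or 4 or any 1 Wildtype library (adjusted p 0.0657 to 0.164). The mean log2(CPM + 1) of these 17 genes was 8.19, 8.23, 8.13 and 8.23 in CicKO, against 8.32, 8.23 and 8.35 in Wildtype (difference -0.10, exact two-sided permutation p = 0.0571, 0.457 adjusted over 16 marker lists; smallest possible p 0.0286). Next by adjusted p in that list came Timp4, a metalloproteinase inhibitor, which averaged 152 ± 8.13 CPM in CicKO and 186 ± 9.88 CPM in Wildtype (SD, n = 4 and 3; log2 fold change -0.29, adjusted p = 0.0609, edgeR). Aldh1l1, a folate enzyme widely used as an astrocyte marker, averaged 83.6 ± 3.04 CPM in CicKO and 96.8 ± 1.05 CPM in Wildtype (SD, n = 4 and 3; log2 fold change -0.21, adjusted p = 0.0635, edgeR). Neither passed the threshold, though their groups did not overlap.

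**Figure D4:**
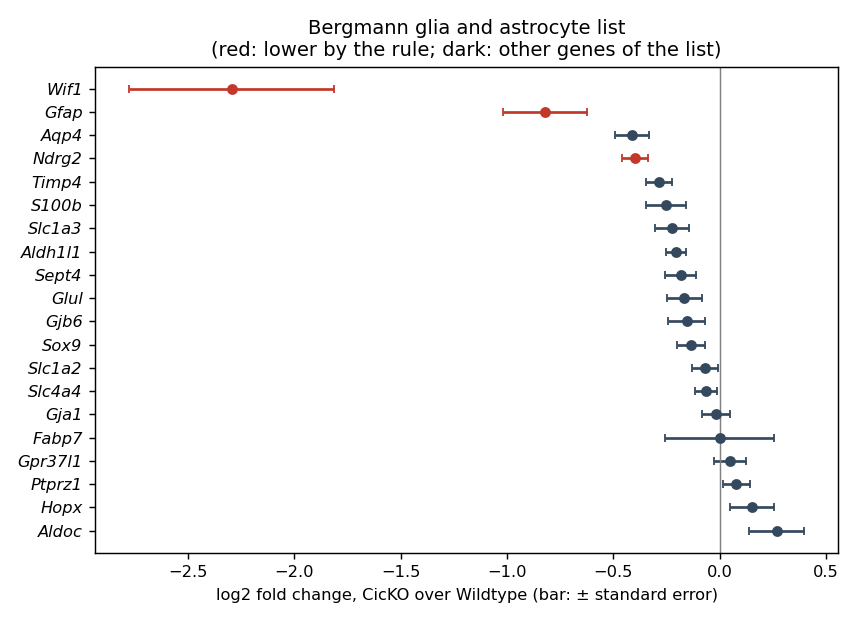
Log2 fold change (CicKO over Wildtype, bars ± standard error) of the 20 tested Bergmann glia and astrocyte markers, members in red and the others dark. Wif1 and Gfap lie farthest below zero, and most other markers lie between -0.3 and 0.3.

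Olig1, a transcription factor of the oligodendrocyte lineage, had 40.1, 46.3, 41.4 and 36.4 CPM in the 4 CicKO libraries, against 53.4, 53.3 and 55.3 CPM in the 3 Wildtype libraries (log2 fold change -0.39, SE 0.0760). It was the member closest to the limit of the rule. Cdh19, a cadherin of glia and Schwann cells, had 5.27, 5.75, 6.21 and 5.75 CPM in CicKO libraries 1 to 4, against 8.98, 8.96 and 9.91 CPM in Wildtype libraries 1 to 3, a log2 fold change of -0.69 (SE 0.0869). Pmp22, a membrane protein of peripheral myelin, averaged 36.4 ± 2.99 CPM in CicKO and 50.4 ± 4.25 CPM in Wildtype, and Evi2a 18.6 ± 2.63 CPM in CicKO and 27.3 ± 2.04 CPM in Wildtype (SD, n = 4 and 3). Folh1, the enzyme that cleaves the transmitter N-acetylaspartylglutamate, averaged 9.50 ± 0.265 CPM in CicKO and 12.3 ± 0.265 CPM in Wildtype (SD, n = 4 and 3).

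Beside these, the 18 markers of myelin and mature oligodendrocytes included 0 members, and 16 were below 0 on the log2 scale, with a median of -0.31. In edgeR 0 of them were called (7 lower and 1 higher at an unadjusted p below 0.05, and 2 lower in DESeq2). Their summed level was 4134 to 6433 CPM in CicKO and 5520 to 6742 CPM in Wildtype, so the groups overlapped. Of 11 other precursor markers, 0 were called in edgeR (2 lower at an unadjusted p below 0.05 and 1 in DESeq2), with a median of -0.14. The part of oligodendrocyte numbers in the level of Olig1, Cdh19 and Evi2a was not tested.

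Transcription factors and cofactors, other than Olig1 given above with the glial genes, were 12 members with means under 17 CPM, and their median log2 fold change was -0.55. Neurod6, a helix-loop-helix factor best known from forebrain pyramidal neurons, had 6.21, 6.97, 6.73 and 6.61 CPM in the CicKO libraries, against 10.2, 10.3 and 11.8 CPM in the Wildtype libraries (log2 fold change -0.70, SE 0.0872). Both groups were tight and well apart. The 10 other tested forebrain markers lay in both directions, with 4 negative values and a median log2 fold change of 0.23; 0 were called in edgeR (4 higher at an unadjusted p below 0.05 and 1 in DESeq2). The forebrain markers Emx1 and Lhx2 were at most 0.279 CPM in all libraries. Ppp1r1b, far more abundant, averaged 192 ± 7.53 CPM in CicKO and 157 ± 17.1 CPM in Wildtype (SD, log2 fold change 0.30, adjusted p = 0.0718, edgeR). Drd1 and Tbr1 had log2 fold changes of 0.91 and 0.74 (adjusted p = 0.0993 and 0.172, edgeR) at means of 0.429 and 1.32 CPM. The listed markers other than Neurod6 summed to 434 to 468 CPM in CicKO and 381 to 417 CPM in Wildtype. The mean log2(CPM + 1) of the 11 listed forebrain markers other than Neurod6 was 2.52, 2.48, 2.53 and 2.58 in CicKO, against 2.45, 2.41 and 2.40 in Wildtype (difference 0.11, exact two-sided permutation p = 0.0286, the smallest possible, and 0.457 adjusted over 16 lists).

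Egr4, an immediate-early zinc finger gene, had 2.98, 3.76, 2.17 and 2.58 CPM in CicKO, against 5.38, 7.05 and 4.36 CPM in Wildtype, a log2 fold change of -0.96 (SE 0.229). The gap between CicKO library 2 and Wildtype library 3 was small beside the spread. Of the 18 other activity-regulated genes tested, 16 were below 0 on the log2 scale, with a median of -0.17, and 0 were called in edgeR (1 higher at an unadjusted p below 0.05 and 0 in DESeq2). Ostn, described above, was the other member on that list.

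Onecut2, a homeodomain factor of developing neurons, had 2.55, 3.27, 1.55 and 2.44 CPM in the 4 CicKO libraries, against 6.18, 6.67 and 3.76 CPM in the 3 Wildtype libraries (log2 fold change -1.17, SE 0.283). In both groups library 3 was the lowest, and the gap between CicKO library 2 and Wildtype library 3 was narrow. Cebpa, a C/EBP factor of metabolic and myeloid cells, had 4.99, 5.85, 5.17 and 4.74 CPM in CicKO libraries 1 to 4, against 7.63, 7.56 and 7.39 CPM in Wildtype libraries 1 to 3 (log2 fold change -0.53, SE 0.0992), and its relative Cebpd averaged 1.98 ± 0.151 CPM in CicKO and 2.91 ± 0.573 CPM in Wildtype (SD, n = 4 and 3). Kctd15, which inhibits AP-2 factors, had 9.21, 10.4, 9.89 and 8.37 CPM in the CicKO libraries, against 13.4, 14.6 and 13.2 CPM in the Wildtype libraries (log2 fold change -0.54, SE 0.0927). Casz1, Mkx, Tcf19, Atoh7, Jazf1 and Nr2f2 (COUP-TFII) had log2 fold changes of -0.64, -0.75, -0.55, -0.50, -0.42 and -0.41.

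Channels, transporters and synaptic proteins were 13 members with a median log2 fold change of -0.79. Slc4a1, the anion exchanger of the red blood cell membrane, had 0.818, 0.476, 0.766 and 0.555 CPM in CicKO, against 2.12, 1.91 and 1.9995 CPM in Wildtype (log2 fold change -1.62, SE 0.211). The highest CicKO value was 0.428 times the lowest Wildtype value. Of 5 other red blood cell markers tested, 0 were called in edgeR (1 lower at an unadjusted p below 0.05 and 0 in DESeq2). Alas2, the haem synthesis enzyme of red blood cells, had 4.03, 2.45, 2.59 and 4.33 CPM in the 4 CicKO libraries, against 2.99, 3.90 and 3.78 CPM in the 3 Wildtype libraries and its groups overlapped. The haemoglobin genes Hba-a1, Hba-a2, Hbb-bs and Hbb-bt were listed at 0 in all libraries. The reason for these zeros was not tested, so they give no measure of blood in the tissue.

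Ryr3, a calcium release channel of the endoplasmic reticulum, had 20.5, 19.3, 21.7 and 11.9 CPM in CicKO libraries 1 to 4, against 30.6, 55.8 and 27.4 CPM in Wildtype libraries 1 to 3. Wildtype library 2 was the highest and CicKO library 4 the lowest by some distance, and the log2 fold change was -1.05 (SE 0.311). Kcnk2, a potassium leak channel, averaged 10.4 ± 0.353 CPM in CicKO and 15.7 ± 2.79 CPM in Wildtype (SD, n = 4 and 3). Kcnk13, of the same family, averaged 4.12 ± 0.474 CPM in CicKO and 6.86 ± 0.640 CPM in Wildtype (SD, n = 4 and 3). Their relative Kcnk1, outside the rule by a narrow margin, had 189, 194, 202 and 189 CPM in the CicKO libraries, against 247, 232 and 249.7 CPM in the Wildtype libraries (log2 fold change -0.32, SE 0.0410, adjusted p = 0.00826, edgeR). That call was lost without CicKO library 1 (adjusted p = 0.0502) or Wildtype library 1 (adjusted p = 0.0530). Among the 23 ion channels of the list used here, which held 0 members, Kcnk1 was the 1 called lower and 2 were called higher in edgeR (2 lower and 6 higher at an unadjusted p below 0.05, and 2 each way in DESeq2), with a median of 0.14.

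Synaptic and sensory genes in the group were present at low levels. Lrrtm4, a synapse organizer of the postsynaptic membrane, averaged 3.02 ± 0.339 CPM in CicKO and 5.56 ± 0.826 CPM in Wildtype (SD, n = 4 and 3). Cpne6, a calcium-binding copine, averaged 5.40 ± 1.36 CPM in CicKO and 10.9 ± 1.54 CPM in Wildtype (SD, n = 4 and 3). Tmie and Otof, known for mechanotransduction and vesicle fusion in hair cells of the inner ear, had log2 fold changes of -0.89 and -0.70. Gng4, a G protein gamma subunit, had 4.30, 4.33, 7.82 and 3.54 CPM in CicKO, against 9.24, 11.3 and 12.1 CPM in Wildtype (log2 fold change -1.13, SE 0.251), with CicKO library 3 the highest of its group. Sh3gl3, Slc5a11, Gpr137b and the mitochondrial citrate carrier Slc25a1 had log2 fold changes of -0.62, -0.79, -0.45 and -0.35.

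Of cerebellar interneuron markers, Npy was the member, and of 11 others 1 was called lower and 0 higher in edgeR (2 lower and 1 higher at an unadjusted p below 0.05, and 1 each way in DESeq2). The 1 called in edgeR, Gad2, a synthetic enzyme of the inhibitory transmitter GABA, had 179, 166, 176 and 172 CPM in the 4 CicKO libraries, against 201, 203 and 215 CPM in the 3 Wildtype libraries (log2 fold change -0.25, SE 0.0462, adjusted p = 0.0369, edgeR). The groups did not overlap, but the adjusted p was 0.0778 with the replicate block and 0.0814 to 0.153 without CicKO library 1, 2 or 4 or Wildtype library 1 or 3.

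Genes of cell death, DNA repair and division were 8 members with a median log2 fold change of -0.52. Casp12, a caspase of the endoplasmic reticulum, averaged 7.69 ± 0.692 CPM in CicKO and 11.4 ± 0.955 CPM in Wildtype (SD, n = 4 and 3). Pmaip1, which encodes the BH3-only protein Noxa, had 1.21, 1.07, 1.30 and 0.837 CPM in CicKO libraries 1 to 4, against 2.11, 1.84 and 2.70 CPM in Wildtype libraries 1 to 3 (log2 fold change -1.002, SE 0.196). In both genes the CicKO libraries were closer to each other than to Wildtype.

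Ung, the uracil DNA glycosylase that starts base excision repair, had 1.83, 1.85, 2.05 and 1.71 CPM in the CicKO libraries, against 3.03, 3.11 and 2.95 CPM in the Wildtype libraries (log2 fold change -0.70, SE 0.117). Alkbh2, a demethylase that reverses alkylation of DNA bases, had 3.42, 3.90, 4.04 and 3.40 CPM in CicKO, against 5.11, 5.18 and 4.98 CPM in Wildtype (log2 fold change -0.46, SE 0.103). Both were even within groups, and they are neighbours: their starts face away from each other on opposite strands of chromosome 5, with 2168 bases between them (GENCODE M21, GRCm38: Alkbh2 chr5:114123926-114128218, minus strand, and Ung chr5:114130386-114139323, plus strand). Alkbh2 shares 329 exonic bases with Usp30 on its other side, whose groups overlapped at 41.5 ± 1.18 CPM in CicKO and 43.3 ± 0.579 CPM in Wildtype (SD, n = 4 and 3). Dctd, Spc24 and Hist1h2be had log2 fold changes of -0.39, -0.43 and -0.63, and Hist1h2be shares 496 exonic bases with Hist1h1e on the same strand, so its counts are uncertain.

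Enzymes of metabolism were 11 members with a median log2 fold change of -0.50. Ak4, a mitochondrial adenylate kinase, had 106, 132, 136 and 111 CPM in the 4 CicKO libraries, against 160.3, 185 and 171 CPM in the 3 Wildtype libraries (log2 fold change -0.50, SE 0.0927). Egln3, an oxygen-sensing prolyl hydroxylase, had 5.13, 5.12, 5.19 and 5.13 CPM in CicKO libraries 1 to 4, against 8.73, 7.20 and 8.97 CPM in Wildtype libraries 1 to 3 (log2 fold change -0.68, SE 0.0956). Its CicKO values were nearly identical, while Wildtype library 2 was below the other Wildtype libraries. Tdo2, a tryptophan dioxygenase, averaged 4.88 ± 0.414 CPM in CicKO and 7.35 ± 0.686 CPM in Wildtype, and Bche, butyrylcholinesterase, 6.10 ± 0.742 CPM in CicKO and 9.43 ± 1.07 CPM in Wildtype (SD, n = 4 and 3). Mgst1, a microsomal glutathione transferase, averaged 12.7 ± 1.87 CPM in CicKO and 20.4 ± 2.29 CPM in Wildtype (SD, n = 4 and 3). Stard5, a sterol carrier with a log2 fold change of -0.39, shares 1202 exonic bases with Il16 on the opposite strand; Il16 had a log2 fold change of -0.36 (adjusted p = 0.0559, edgeR), and the strand setting of the counts was not stated, so reads of these genes cannot be told apart there.

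Proteins of the cytoskeleton and of signalling inside the cell were 11 members with a median log2 fold change of -0.60. Syde1, a GTPase-activating protein, had 14.6, 14.2, 15.8 and 13.9 CPM in the CicKO libraries, against 30.8, 24.96 and 25.6 CPM in the Wildtype libraries (log2 fold change -0.89, SE 0.0788). CicKO values were even and at most 0.632 times the lowest Wildtype value. Csrp1, a LIM domain protein of actin filaments, had 258, 268, 249.8 and 239.6 CPM in CicKO, against 327, 309.8 and 318 CPM in Wildtype (log2 fold change -0.32, SE 0.0527). Pik3r1, the regulatory subunit of phosphoinositide 3-kinase that receptor tyrosine kinases recruit, had 132, 134, 127 and 118 CPM in the 4 CicKO libraries, against 154, 159 and 157 CPM in the 3 Wildtype libraries, the smallest log2 fold change of all members at -0.29 (SE 0.0533). Neb, a large protein of the muscle thin filament, averaged 27.99 ± 2.77 CPM in CicKO and 49.9 ± 7.77 CPM in Wildtype, and Kazn, a cell junction protein, 60.1 ± 1.57 CPM in CicKO and 82.1 ± 3.81 CPM in Wildtype (SD, n = 4 and 3).

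Non-coding and unnamed transcripts were 15 members with a median log2 fold change of -0.88, the most negative of the 10 groups. The 3 most abundant of them on the CPM scale, Tunar, AI593442 and D630045J12Rik, are annotated as protein-coding in GENCODE M21. Tunar, also known as a long non-coding RNA of pluripotent and neural cells, had 17.97, 18.2, 13.3 and 19.9 CPM in CicKO libraries 1 to 4, against 38.8, 46.04 and 39.8 CPM in Wildtype libraries 1 to 3 (log2 fold change -1.26, SE 0.144). CicKO library 3 was the lowest and the groups were far apart. AI593442 had 14.4, 14.7, 22.2 and 17.1 CPM in the CicKO libraries, against 36.8, 44.4 and 40.7 CPM in the Wildtype libraries (log2 fold change -1.25, SE 0.144), and its groups were likewise apart. D630045J12Rik had 30.9, 33.8, 55.3 and 34.2 CPM in CicKO, against 79.7, 63.7 and 73.01 CPM in Wildtype (log2 fold change -0.91, SE 0.190), and CicKO library 3 stood well above the other CicKO libraries. Among those annotated as long intergenic RNAs, 6530403H02Rik averaged 1.15 ± 0.410 CPM in CicKO and 2.86 ± 0.851 CPM in Wildtype (SD, n = 4 and 3; log2 fold change -1.31, SE 0.332). Of 118 members found in GENCODE M21, 8 were long intergenic RNAs (6.78%, beside 1.00% of the 13884 matched genes that averaged 1 CPM or more), and 107 were protein-coding (90.7%, beside 96.4%). The non-coding and unnamed group also had the lowest median level of the 10 groups, at 3.04 CPM. The rule took low-level genes more often, and shares at a like level were not compared.

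**Figure D5:**
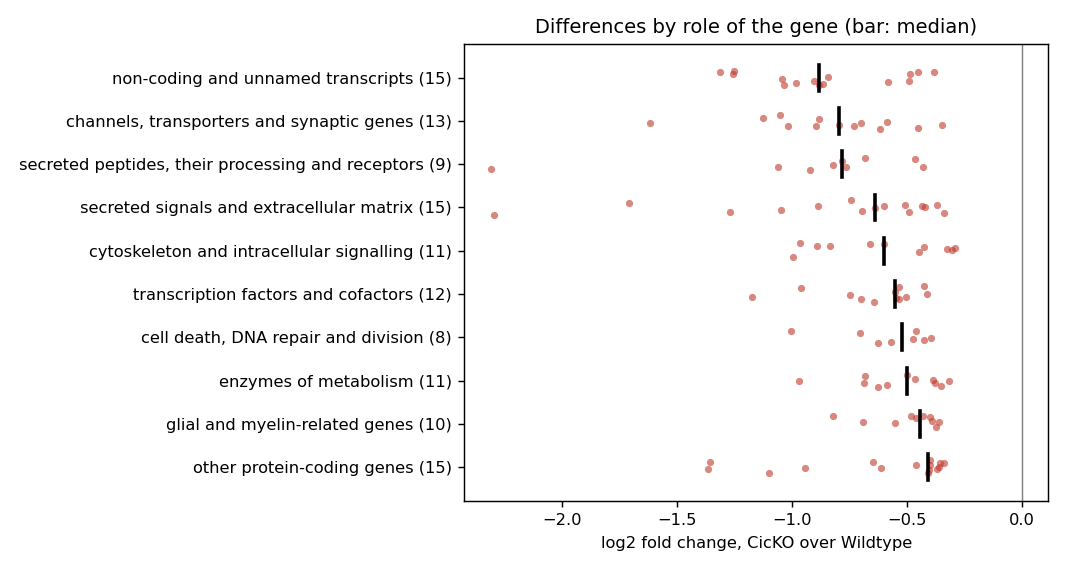
Log2 fold change (CicKO over Wildtype) of each member, by role, with the number of members in brackets and the median as a black bar. Group medians run from -0.88 for non-coding and unnamed transcripts to -0.41 for other protein-coding genes, and the ranges of all groups overlap.

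The 15 other protein-coding members were at a median log2 fold change of -0.41 and included some of the largest differences. Fam163b, a membrane protein, had 8.13, 7.54, 6.79 and 6.24 CPM in the 4 CicKO libraries, against 16.7, 23.6 and 15.2 CPM in the 3 Wildtype libraries (log2 fold change -1.37, SE 0.169). Fbxw15, an F-box protein, had 1.03, 0.963, 1.20 and 0.809 CPM in CicKO libraries 1 to 4, against 2.42, 2.55 and 2.73 CPM in Wildtype libraries 1 to 3 (log2 fold change -1.36, SE 0.159). The highest CicKO value was 0.534 times the lowest Wildtype value for Fam163b and 0.494 times for Fbxw15. Prr16 had 3.50, 3.80, 2.73 and 3.22 CPM in the CicKO libraries, against 6.97, 7.53 and 6.84 CPM in the Wildtype libraries (log2 fold change -1.10, SE 0.135). Its Wildtype values were even, while its CicKO values ran from 2.73 to 3.80 CPM. Smco3 and Txlnb, the second of them a muscle taxilin counted with the cytoskeletal genes, had log2 fold changes of -0.94 and -0.99.

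Members lay on most chromosomes. Shares are of the genes on each chromosome that averaged 1 CPM or more. Members were 1.98% of 454 on chromosome 16, 1.73% of 694 on chromosome 6 and 1.40% of 499 on chromosome 12. They were 1.39% of 792 on chromosome 9, 1.17% of 511 on chromosome 13 and 1.04% of 1053 on chromosome 7. The lowest shares among the numbered chromosomes were 0.185% of 540 on chromosome 15, 0.212% of 471 on chromosome 19 and 0.293% of 682 on chromosome 17. The X chromosome held 0 of its 482. Over all 13991 genes, 0.915% met the rule before the 9 named genes were left out. The nearest members to Cic on chromosome 7 were Kctd15 at 9.34 Mb and Cebpa at 9.83 Mb. Those nearest to En1 on chromosome 1 were Cdh19 at 9.62 Mb and Csrp1 at 15.1 Mb. In GENCODE M21, 7 pairs of members lay within 100 kb of each other. Tmie, Tdgf1 and Lrrc2 formed 3 of these pairs on chromosome 9, with 5387 bases between Tdgf1 and Lrrc2 and 59490 between Tmie and Tdgf1. Lpp and its antisense neighbour Lppos on chromosome 16 share 82 exonic bases on opposite strands, and had log2 fold changes of -0.42 and -0.45. In all, 39 members share exonic bases with another gene. Smco3 shares 2202 of its 2298 exonic bases with BC049715 and Ccdc3 1845 of 2670 with Gm26776, both on the opposite strand. Lrrtm4 shares 1543 with Gm4409, Adamts9 1381 with A730049H05Rik, Ryr3 916 with Aven and Cebpd 562 with Spidr. Gm26776, Gm4409 and A730049H05Rik were not among the genes counted, and reads of overlapping genes cannot be told apart without the strand setting.

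Gene length and base composition were near those of other genes. The median gene length was 23639.5 bases for members and 25400.5 bases over the 13884 matched genes, and the median GC content of the longest transcript was 49.6% for members and 49.8% over those genes. Exonic length was shorter, with a median of 3348.5 bases for members and 4553.5 bases over those genes. Spread within groups was uneven. The highest CicKO value was at least 1.5 times the lowest for 28 members and at least 2 times for 9. Among Wildtype libraries these counts were 10 and 2, the 2 being Myoc and Ryr3. A range over 4 libraries tends to be wider than a range over 3, so the CicKO and Wildtype counts are not directly comparable. Both libraries of replicate 3 were the highest of their group for 19 members (15.97%), beside 19.6% of the 13991 genes.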

How the data were processed

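Raw read counts per gene symbol were deposited for 4 CicKO and 3 Wildtype libraries, with 1 file each, no normalization and 5 HTSeq summary rows that stayed out of all totals. The submitters' processing notes name build mm10 and the tools STAR 2.5.3a, HTSeq and DESeq2, in no stated role. Per the labels' protocols, cDNA was amplified with poly(A) and random priming. Other versions, the annotation and the strand setting are not stated there. Amplified reads carry no molecular identifiers, so floors cover counting error only.

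Counts were analysed in R 4.3.3 with edgeR 4.0.16: TMM scaling, filterByExpr (16905 genes left), and a robust quasi-likelihood F test of genotype, with Benjamini-Hochberg adjustment over all genes tested and calls at an adjusted p below 0.05. The pipeline was tested on simulated data. Marker list scores were compared by exact permutation over 35 splits. DESeq2 1.42.0 was an alternative. Libraries of 1 group differed by 18.5 to 157 times sampling variance over genes, so none was counted as a duplicate.

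Replicate numbers come from the sample titles. Deviations from group means correlated at 0.145, 0.288 and 0.713 for numbers 1, 2 and 3, all over 0.1, so a fit with the replicate block was run beside the main one; CicKO library 4 has no partner in it. Libraries of unlike number also passed 0.1 (CicKO 1 with Wildtype 2 at 0.319 and CicKO 4 with Wildtype 2 at 0.297).

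Members and gene lists were chosen with earlier results of these data known. Named members are the 12 lowest log2 fold changes, the 12 smallest ratios, the 10 highest levels, those in a gene list, and those nearest the limit. From each list, up to 3 other genes could be named by adjusted p. The role groups, and members and other genes named beyond these rules, such as Chga, Scg2, Npr3, Emx1, Lhx2 and Alas2, were chosen after their values were seen. Gene positions are from GENCODE M21 (GRCm38), matched by symbol for 118 members, and promoters from RefSeq (GRCm38.p6). The deposited sums over genes set the CPM. Some genes are not reported here by name.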

Additional observations from a re-analysis of the deposited data

Results flagged for a closer look

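In groups of 4 libraries, a value was singled out when its gap to the nearest other library, divided by the whole range of the group, exceeded Dixon's critical value at 95% for 4 values. Chance does this in about 1 in 20 groups, and 17 of 181 groups examined were singled out; groups of 3 Wildtype libraries were not examined. Of the 119 members, 11 were singled out, 8 of them for CicKO library 3. Over the 13991 genes, that library was the highest CicKO library for 5847 and the lowest for 3722, so it was often at an end of its group.

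CicKO library 3 was the highest of its group for Wif1 with 1.70 CPM, where the others had 0.461 to 0.535 CPM, and for Sst with 1.70 CPM, where the others had 1.08 to 1.12 CPM. It was also the highest for D630045J12Rik with 55.3 CPM (others 30.9 to 34.2), 4632428C04Rik with 1.07 CPM (others 0.677 to 0.720), D2hgdh with 13.04 CPM (others 10.8 to 11.1) and Tdgf1 with 4.98 CPM (others 4.23 to 4.30). For Egln3 it was the highest with 5.19 CPM, but the others lay so close, at 5.12 to 5.13 CPM, that the distance is small in absolute terms. It was the lowest for Dctd with 2.72 CPM (others 3.59 to 3.75). The same library had a choroid plexus score, the mean log2(CPM + 1) of 12 markers, of 6.26, where the others had 1.57 to 1.93. The part of that tissue in the values above was not tested.

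Among the other members, CicKO library 2 was the highest for Gpr137b with 15.9 CPM (others 13.7 to 13.9), and CicKO library 4 was the lowest for Pde8a with 9.74 CPM (others 11.8 to 11.97) and for Sorcs1 with 11.9 CPM (others 14.3 to 14.7). Outside the members, CicKO library 3 was the lowest for Sstr3 with 11.4 CPM (others 18.9 to 19.7) and for Scg2 with 299 CPM (others 345 to 354). CicKO library 1 was the highest for Kit with 365 CPM (others 324 to 329). CicKO library 2 was the lowest for Asic2 with 49.9 CPM (others 56.5 to 57.4) and for Mt2 with 83.0 CPM (others 95.4 to 97.4).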

How the results depend on the processing

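The rule fixes the sign of the members' differences, so their direction under other settings is no test. The number of genes called moved widely. DESeq2 called 497 genes lower and 673 higher, and 115 members lower. Leaving out 1 library gave 21 to 349 genes called lower, 65 to 493 called higher and 16 to 91 members called lower. Genes called lower numbered 21, 57, 349 and 28 without CicKO library 1, 2, 3 and 4, and 25, 205 and 24 without Wildtype library 1, 2 and 3. The replicate block gave 204 lower and 310 higher genes and 82 members called lower; beside Gad2 and Chga, where it ended the call, it ended no call of a gene outside the members that the report gives as called.

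Membership depends on the limits: a ratio of 0.80 left 44 genes, a minimum of 5 CPM left 77, and leaving out 1 library gave 135 to 314, the most without CicKO library 3 (314) or Wildtype library 2 (308). Without both replicate 3 libraries, an alternative chosen after seeing the data, 352 genes met the rule, 118 of the 119 among them. TMM scaling gave 133 genes and DESeq2 factors 128, each sharing 110 with the 119. The cause of these moves was not tested beyond the number of libraries that each rule must satisfy. In 2 members the fold change moved by over 1.5-fold without 1 library, Myoc (-0.60 without Wildtype library 2) and Wif1 (-2.97 without CicKO library 3). In every library 3 counts equal at most 0.0292 CPM, well below the minimum of 1 CPM, and the exact test over 35 splits cannot go below 0.0286.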
